A study of Homo sapiens with 24 samples.

Results

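Messenger RNAs that encode heterogeneous nuclear ribonucleoproteins (hnRNPs) and the splicing factor U2AF were followed through RNA sequencing and ribosome profiling in MDA-MB-231, a line of human breast cancer cells. The set was a list of 14 Ensembl transcripts of 10 genes, picked by gene name. Of these, 9 transcripts, 1 for each of 9 genes, had a row in both deposited tables, against 11252 transcripts in the table of LM2 and parental cells and 10767 in the table of knockdown and control guide cells. They were HNRNPA1 (ENST00000340913), HNRNPA2B1 (ENST00000354667), HNRNPD (ENST00000313899), HNRNPK (ENST00000376281), PTBP1 (ENST00000356948), HNRNPL (ENST00000221419), HNRNPM (ENST00000325495), U2AF1 (ENST00000291552) and U2AF2 (ENST00000308924). The other 5 had no row in either table used here: ENST00000546500 of HNRNPA1, ENST00000356674 of HNRNPA2B1, ENST00000376263 of HNRNPK, and ENST00000283179 and ENST00000444376 of HNRNPU, so HNRNPU is not analysed here. All 9 transcripts present passed the filter of a mean value of at least 10 in both assays, as did 9342 transcripts of the LM2 table and 8283 of the knockdown table in all. The gene name of each transcript comes from the list, because the tables give transcript IDs alone.

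Each of the 4 cell groups had 3 RNA libraries and 3 ribosome footprint libraries. LM2 cells, a derivative that the labels call highly metastatic to lung, were compared with the parental line, which they call poorly metastatic. Cells labelled as an HNRNPC knockdown (guide sgHNRNPC) were compared with cells that carry a control guide (sgCTRL), both in the poorly metastatic MDA-MB-231 line. Whether the knockdown cells were a clone or a pool is not given in the sources used here. The stated aim was to compare translation efficiency, which is the footprint value of a transcript per unit of its RNA value. Neither the level of HNRNPC itself nor markers of the cell line could be checked, since the IDs of those genes are not paired with names here. Whether the replicates were cultured separately is not stated, so each p-value reflects the spread among these samples, part of which may be technical. In a bulk lysate, fewer cells that carry a transcript and less of it in each cell cannot be told apart.

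The hnRNPs are RNA-binding proteins that coat newly made transcripts in the nucleus and help decide how they are spliced, processed and exported. U2AF is a heterodimer in which the large subunit, U2AF2, binds the run of pyrimidines before an intron's end and the small subunit, U2AF1, binds the AG dinucleotide at the 3' splice site. HNRNPC, the gene targeted in the knockdown, binds runs of uridines and is known to compete with U2AF2 for them. Several of these proteins control their own messenger RNA through splicing that yields transcripts marked for decay.

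On the deposited values, U2AF1 was the 1 transcript of the 9 with an RNA change above 0 in both comparisons. Its RNA rose in LM2 cells and in HNRNPC knockdown cells, while the RNA of its partner U2AF2 fell in both. The RNA of HNRNPK, HNRNPM, HNRNPL, HNRNPA2B1 and PTBP1 fell in both as well, with log2 changes of -0.31 to -0.10. With quantile normalization, the LM2 falls of HNRNPL, HNRNPM and PTBP1 and the knockdown falls of U2AF2 and PTBP1 no longer passed, and the knockdown changes of HNRNPK and HNRNPA2B1 lay above 0. None of the 9 transcripts passed the test for translation efficiency in either comparison.

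In LM2 cells, RNA rose for 1 and fell for 6 of the 9 transcripts, with limma's moderated test and adjustment over all transcripts of the table (adjusted p under 0.05, as for every call here). Over all 9342 transcripts tested, 22.9% were called higher and 30.8% lower. The median log2 change was -0.13 for the 9 transcripts and -0.03 for all transcripts. The standard error of a log2 change had a median of 0.03 for the 9 transcripts and 0.07 for all, so changes as small as -0.10 passed the test here. Footprints fell for 7 of the 9 and rose for 0, against 9.25% called higher and 14.5% called lower over all transcripts. The median standard error of a footprint change was 0.08 for the 9 transcripts and 0.15 for all. With a minimum mean of 50, 1171 of 5463 transcripts were called lower in footprints and 550 higher. The median log2 footprint change was -0.25 for the 9 transcripts and -0.0011 for all.

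**Figure D1:**
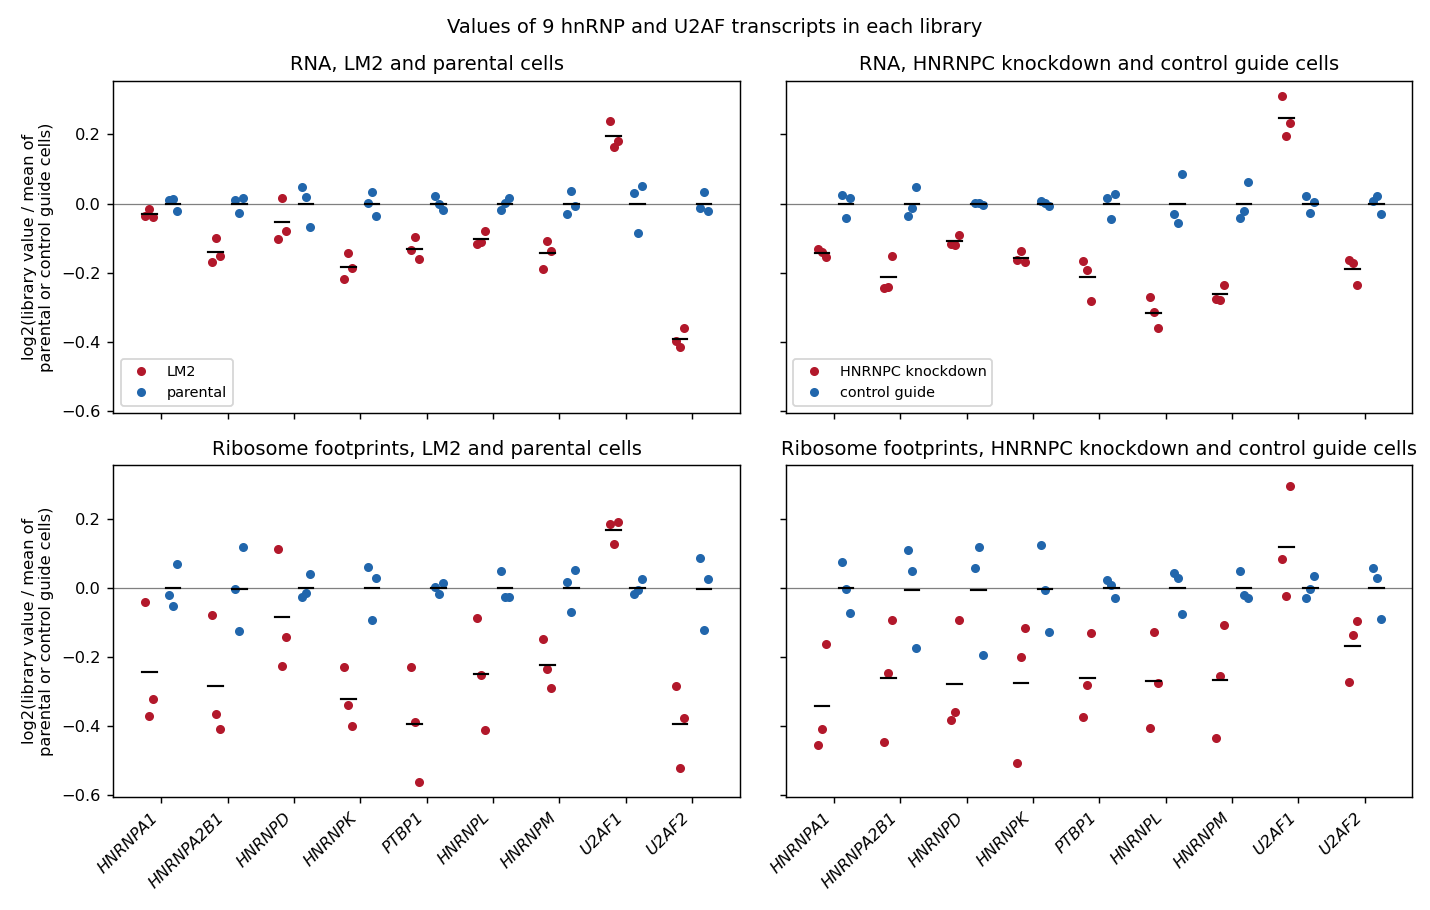
RNA values (top) and ribosome footprint values (bottom) of 9 transcripts in each library, as log2 of the value over the mean of the 3 parental libraries (left) or the 3 control guide libraries (right). Points are libraries, black bars are group means; LM2 and HNRNPC knockdown are in red, parental and control guide in blue. The red points of U2AF1 RNA lie above the blue ones in both comparisons, and those of U2AF2, HNRNPK, HNRNPL, HNRNPM, HNRNPA2B1 and PTBP1 RNA lie below.

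The U2AF subunits moved in opposite directions in LM2 cells. The RNA value of U2AF1 was 3625, 3437 and 3478 in the LM2 libraries, against 3138, 2891 and 3181 in the parental libraries. U2AF2 had RNA values of 9263, 9151 and 9502 in LM2 cells and 12104, 12479 and 12035 in parental cells. Every LM2 library lay above the parental libraries for U2AF1 and below them for U2AF2. The log2 change was 0.20 ± 0.05 (SE, n = 3 per group) for U2AF1 RNA and -0.39 ± 0.03 for U2AF2 RNA, with limma adjusted p = 0.00252 and 3.64e-09. U2AF2 had the largest RNA change of the 9 transcripts in this comparison, a fall of 23.8% with a 95% interval of 19.9 to 27.4%.

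Footprints on U2AF1 amounted to 145, 139.8 and 146 in LM2 libraries and 126, 127 and 130.4 in parental libraries. These groups did not overlap, yet the change of 0.17 (95% interval -0.04 to 0.37) did not pass limma's test across all transcripts (adjusted p = 0.244). U2AF2 footprints were 463, 392 and 434 in LM2 libraries, below all of the 598, 517 and 573 in parental libraries. Their log2 change of -0.39 ± 0.08 was of the same size as that of U2AF2 RNA (limma adjusted p = 0.00066).

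The promoters of this pair are printed because the subunits work as 1 complex while their RNAs moved apart. They are the 250 bases before the start that the RefSeq promoter table gives for each gene on GRCh38.p14, read 5′ to 3′ on the gene's strand. Capitals mark GC boxes (GGGCGG on either strand) and, in U2AF2, an ETS-type motif (CGGAAGT on either strand). U2AF1 lies at chr21:43092956-43107578 and U2AF2 at chr19:55655035-55674716. The U2AF1 window is chr21:43107571-43107820 on the minus strand, and the U2AF2 window is chr19:55654785-55655034 on the plus strand.
U2AF1: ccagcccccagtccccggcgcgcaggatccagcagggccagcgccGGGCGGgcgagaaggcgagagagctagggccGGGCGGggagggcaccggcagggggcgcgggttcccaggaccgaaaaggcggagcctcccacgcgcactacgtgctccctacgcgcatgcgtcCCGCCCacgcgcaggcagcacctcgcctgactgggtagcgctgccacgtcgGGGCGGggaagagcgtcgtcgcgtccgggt
U2AF2: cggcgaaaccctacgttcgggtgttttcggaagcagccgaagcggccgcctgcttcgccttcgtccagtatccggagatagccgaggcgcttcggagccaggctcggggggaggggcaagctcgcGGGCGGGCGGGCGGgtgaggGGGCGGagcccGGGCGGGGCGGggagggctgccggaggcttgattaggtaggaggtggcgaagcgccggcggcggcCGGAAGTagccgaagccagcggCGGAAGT
Both windows are rich in GC, at 75.6% for U2AF1 and 72.4% for U2AF2, against a median of 58% over 35116 promoter windows of the same length. U2AF1 held 4 GC boxes, and U2AF2 held 6, counting overlapping matches, together with 2 ETS-type motifs. A GC box was found in 42.6% of all windows and the ETS-type motif in 5.69%. Among the 8 genes with an entry in the table, 6 held a GC box (HNRNPD, HNRNPK, HNRNPL, PTBP1, U2AF1 and U2AF2) and 3 held the ETS-type motif (HNRNPA2B1, HNRNPD and U2AF2). A CCAAT box (CCAAT, either strand) was present in 4 of the 8 and in 32.0% of all windows, and neither U2AF gene held one. Of the other motifs searched on both strands, TGACGT was in 2 of the 8 and 7.10% of all windows, CACGTG in 2 and 6.34%, and TATAAA in 1 and 10.7%. These matches describe letters in the windows, and binding was not measured.

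HNRNPK, which binds C-rich RNA and DNA through KH domains, had the largest RNA fall in LM2 cells after U2AF2. Its RNA value was 27507, 28994 and 28151 in LM2 libraries and 32059.8, 32754 and 31214 in parental libraries, with no overlap. The log2 change was -0.18 ± 0.03 (limma adjusted p = 3.19e-05). HNRNPK footprints were 827, 768 and 736 in LM2 cells, all below the 1012, 909 and 990.3 in parental cells, a log2 change of -0.32 (limma adjusted p = 0.003). The gene (chr9:83968083-83980615 on GRCh38.p14, as for every position here) overlaps HNRNPK-AS1, MIR7-1 and RMI1 in the RefSeq annotation, and how the authors assigned reads of overlapping genes is not given in the sources used here.

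PTBP1 and HNRNPL are related proteins that bind pyrimidine tracts and CA-rich sequences in introns and often repress the use of nearby exons. Their genes lie at chr19:797452-812312 and chr19:38836370-38852347. PTBP1 RNA was 16972, 17438 and 16682 in LM2 libraries and 18917, 18617 and 18386 in parental libraries. Its footprints were 936, 839 and 743 in LM2 libraries, against 1098, 1085 and 1108 in parental libraries. Neither readout overlapped between the groups, and the log2 change was -0.13 for RNA and -0.39 for footprints (limma adjusted p = 0.00131 and 0.000565). With quantile normalization neither PTBP1 change passed (-0.05, adjusted p = 0.108, for RNA and -0.09, adjusted p = 0.227, for footprints). A spread taken from all 12 libraries of the table gave an adjusted p of 0.151 for PTBP1 RNA. Without a variance trend its footprint change had an adjusted p of 0.0661. HNRNPL RNA was 9715, 9747 and 9981 in LM2 libraries, below all of the 10399, 10552 and 10663 in parental libraries. This RNA change of -0.10 (limma adjusted p = 0.0138) was the smallest to pass, and it missed the threshold under 4 alternatives. Its adjusted p was 0.0667 with library medians aligned, 0.0755 without a variance trend and 0.265 with the spread from all 12 libraries. With quantile normalization its change was -0.0014 (adjusted p = 0.975). HNRNPL footprints were 791, 706 and 632 in LM2 libraries and 869.7, 825 and 826 in parental libraries, with a log2 change of -0.25 (limma adjusted p = 0.0262).

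HNRNPM (chr19:8444975-8489114), a splicing regulator that binds GU-rich RNA, had RNA values of 16923, 17917 and 17558 in LM2 libraries and 18903, 19799 and 19203 in parental libraries. Its footprints were 764, 721 and 693 in LM2 libraries, against 857, 807 and 879 in parental libraries. All LM2 libraries lay below the parental ones in both readouts. The log2 change was -0.14 for RNA and -0.22 for footprints (limma adjusted p = 0.000758 and 0.0358).

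HNRNPA1 (chr12:54280726-54287087) and HNRNPA2B1 (chr7:26189927-26200746) are abundant A/B-type hnRNPs that bind RNA through paired RRM domains and regulate alternative splicing. HNRNPA2B1 RNA was 43418, 45548 and 43943 in LM2 libraries and 49179.9, 47953 and 49348 in parental libraries, a log2 change of -0.14 (limma adjusted p = 0.000255). Its footprints were 851, 698 and 677 in LM2 libraries and 895, 824 and 975 in parental libraries. LM2 replicate 1 lay within the parental range, and the change of -0.28 passed (limma adjusted p = 0.017). HNRNPA1 RNA, at 48928, 49600.1 and 48802 in LM2 libraries and 50514, 50536 and 49334 in parental libraries, overlapped and had a change of -0.03 (95% interval -0.08 to 0.03) that did not pass (limma adjusted p = 0.366). HNRNPA1 footprints were 881, 702 and 725 in LM2 libraries and 894, 874 and 951 in parental libraries. Here too LM2 replicate 1 overlapped the parental libraries, and the change of -0.24 passed (limma adjusted p = 0.034). The RefSeq annotation names 75 pseudogenes of HNRNPA1, 5 of HNRNPK and at most 2 of any other of the 9 genes, and how shared reads were assigned is not given in the sources used here.

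HNRNPD (chr4:82352498-82373991), also known as AUF1, binds AU-rich elements of short-lived messenger RNAs and was the transcript with no call in either LM2 readout. Its RNA was 20748, 22531 and 21099 in LM2 libraries and 23026, 22570.3 and 21237 in parental libraries. HNRNPD footprints were 607, 480.4 and 509.6 in LM2 libraries and 552, 556 and 578 in parental libraries. The groups overlapped in both readouts. The RNA change was -0.05 (95% interval -0.13 to 0.02, limma adjusted p = 0.219) and the footprint change -0.08 (-0.26 to 0.09, adjusted p = 0.511).

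The count of 7 footprint falls in LM2 cells rested on few libraries and on the scaling. It was 3 without LM2 replicate 2, without LM2 replicate 3, without parental replicate 1 or without parental replicate 3, and in each of these fits HNRNPA1, HNRNPA2B1, HNRNPL and HNRNPM no longer passed. The share of all transcripts called in these fits fell too, to 16.5%, 16.2%, 20.4% and 19.6%, against 23.8% with every library. HNRNPK, PTBP1 and U2AF2 passed in every fit that left out 1 replicate. With quantile normalization 0 of the 9 passed, against 20.9% of all transcripts, and HNRNPA1, HNRNPL and HNRNPM had small changes above 0.

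In HNRNPC knockdown cells, RNA rose for 1 and fell for 8 of the 9 transcripts. The background of this comparison was wide, with 28.0% of 8283 transcripts called higher and 45.4% lower. The median log2 RNA change was -0.19 for the 9 transcripts and -0.10 for all transcripts. Deposited RNA values summed to 23607900 to 23863260 in knockdown libraries, against 26071868 to 26617054 in control guide libraries. The number of RNA falls depended on the scaling. Aligning the library medians set the median of all transcripts to 0.0034 and left 5 of the 9 called. Of all transcripts, 73.5% were called after this alignment and 73.5% on the deposited values. That scaling moved the share of higher calls among all RNA calls to 50.02%, against 38.2% on the deposited values, and quantile normalization moved it to 51.3%. Footprints fell for 5 of the 9 and rose for 0, where 15.5% of all transcripts were called higher and 20.7% lower. Here the median standard error of a footprint change was 0.11 for the 9 transcripts and 0.17 for all. With a minimum mean of 50, 1133 of 3994 transcripts were called lower in footprints and 711 higher.

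**Figure D2:**
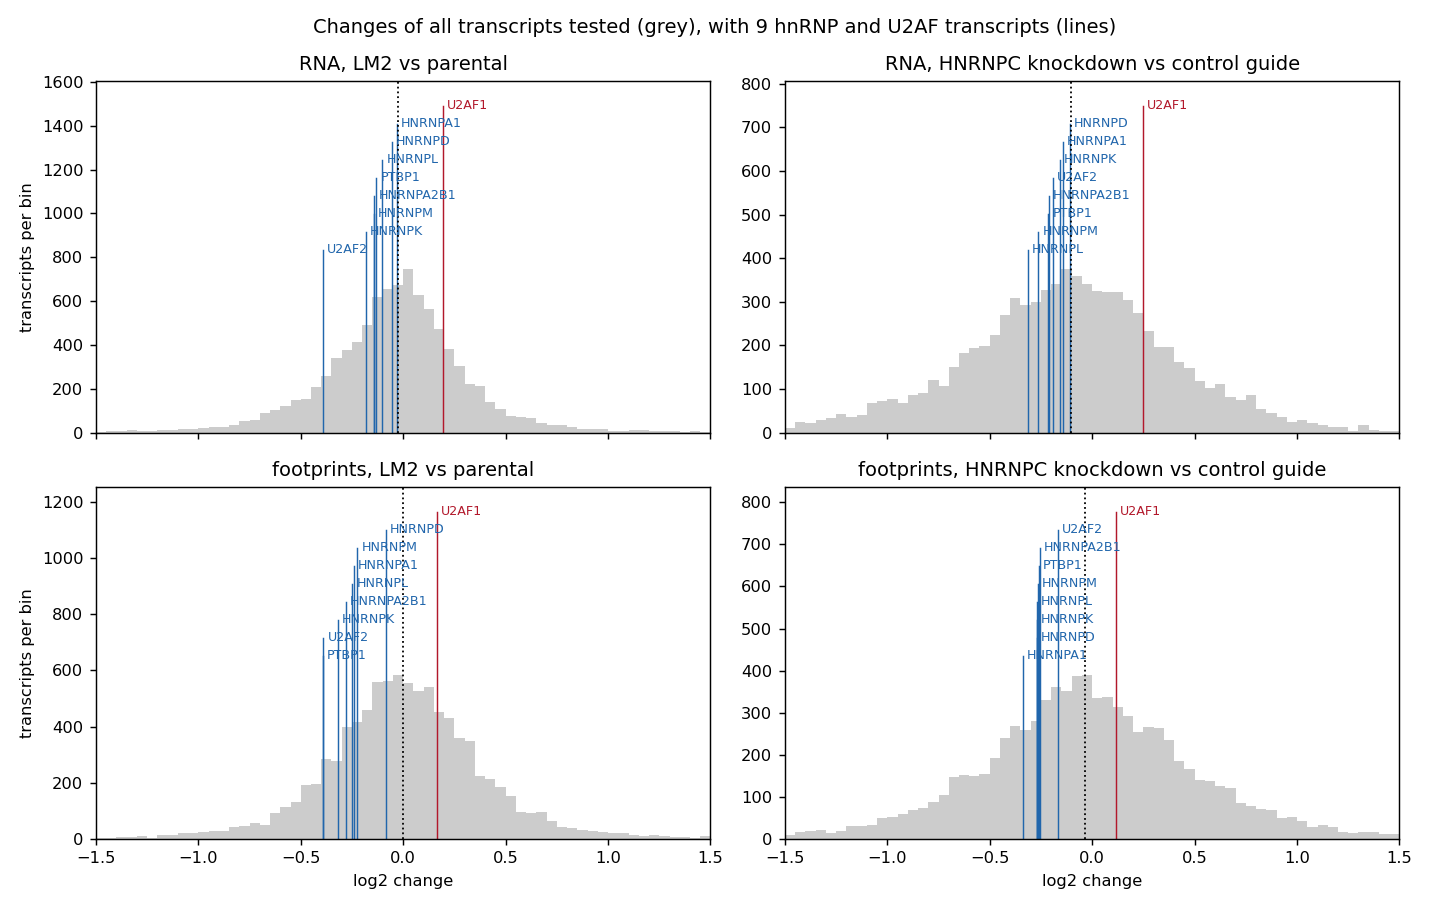
Log2 changes of all transcripts tested (grey bars, 0.05 wide) for RNA (top) and footprints (bottom), LM2 over parental (left) and HNRNPC knockdown over control guide (right). Coloured lines mark the 9 transcripts at their own change (red above 0, blue below), line heights only separate the names, the dotted line is the median of all transcripts, and changes beyond 1.5 in size are off the axes. The 8 lines other than U2AF1 lie below 0 in every panel. In the LM2 footprint panel all of these but HNRNPD lie at percentiles 12.7 to 24.9 of all transcripts. In the LM2 RNA panel U2AF2 lies at percentile 13.4.

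The U2AF subunits also parted in the knockdown. U2AF1 had RNA values of 2294, 2119 and 2174 in knockdown libraries and 1878, 1815 and 1855 in control guide libraries. U2AF2 RNA was 7379.6, 7339.6 and 7016 in knockdown libraries, against 8310.0, 8387 and 8095 in control guide libraries. Neither subunit's groups overlapped. U2AF1 RNA rose by 0.25 ± 0.06 on the log2 scale (limma adjusted p = 0.000354), which is 0.35 above the median of all transcripts. U2AF2 RNA fell, with a log2 change of -0.19 ± 0.04 (limma adjusted p = 0.000153). Relative to the median of all transcripts the U2AF2 change was -0.09, and it did not pass with library medians aligned (adjusted p = 0.0669) or with quantile normalization (adjusted p = 0.925).

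Footprints of the pair passed in neither case. U2AF1 footprints were 87.9, 81.8 and 102 in knockdown libraries and 81.3, 82.9 and 84.9 in control guide libraries, with an overlap between the groups. U2AF2 footprints were 318, 350.1 and 360.0 in knockdown libraries and 400.03, 392 and 361 in control guide libraries, all lower in the knockdown by a narrow margin. The log2 changes were 0.12 (95% interval -0.14 to 0.37) for U2AF1 and -0.17 (-0.37 to 0.04) for U2AF2, with limma adjusted p = 0.491 and 0.198.

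HNRNPL and HNRNPM had the largest RNA falls of the set in the knockdown. HNRNPL RNA was 6401, 6213 and 6019.6 in knockdown libraries and 7564, 7424 and 8190.1 in control guide libraries. HNRNPM RNA was 10641, 10619 and 10947 in knockdown libraries and 12523, 12686 and 13439.8 in control guide libraries. Every knockdown library lay below every control guide library for both genes. Their log2 changes were -0.31 ± 0.04 and -0.26 ± 0.04 (limma adjusted p = 6.19e-07 and 1.55e-06), or -0.21 and -0.16 relative to the median of all transcripts. HNRNPL footprints were 470.1, 569 and 514 in knockdown libraries, against 642, 635 and 591 in control guide libraries. HNRNPM footprints were 410.4, 465 and 516 in knockdown libraries, against 575, 547 and 544 in control guide libraries. The groups were apart in both, with log2 footprint changes of -0.27 and -0.27 (limma adjusted p = 0.0418 and 0.0448).

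PTBP1, the pyrimidine-tract binding repressor, had RNA values of 9466, 9295 and 8736 in knockdown libraries and 10736, 10298 and 10832 in control guide libraries. Its footprints were 518, 552 and 614 in knockdown libraries and 681, 675 and 658 in control guide libraries. Both readouts were lower in every knockdown library. The log2 change was -0.21 for RNA and -0.26 for footprints (limma adjusted p = 4.92e-05 and 0.0465).

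Both A/B-type genes had lower RNA in the knockdown on the deposited values, and the footprints of HNRNPA1 fell too. HNRNPA1 RNA was 35661, 35446 and 35112 in knockdown libraries and 39757, 37964 and 39483 in control guide libraries, a log2 change of -0.14 (limma adjusted p = 0.00119). HNRNPA1 footprints were 453, 467 and 555 in knockdown libraries and 653, 619 and 589 in control guide libraries. Their change of -0.34 (limma adjusted p = 0.0115) was the largest footprint change of the 9 in this comparison. HNRNPA2B1 RNA was 29016, 29051 and 30917 in knockdown libraries and 33509, 34018 and 35518 in control guide libraries, with a change of -0.21 (limma adjusted p = 2.66e-05). HNRNPA2B1 footprints were 545, 625 and 696 in knockdown libraries and 801, 767 and 658 in control guide libraries. These overlapped, and the change of -0.26 (95% interval -0.48 to -0.03) did not pass (limma adjusted p = 0.0716).

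HNRNPK, HNRNPD and HNRNPA1 had the RNA changes closest to the median of all transcripts. HNRNPK RNA was 19477, 19844 and 19419 in knockdown libraries and 21913, 21840.1 and 21721 in control guide libraries. HNRNPD RNA was 11772, 11748 and 12002 in knockdown libraries and 12798, 12779 and 12739.7 in control guide libraries. The groups were apart, with log2 changes of -0.16 and -0.11 (limma adjusted p = 0.000355 and 0.00969). Relative to the median of all transcripts these were -0.05 for HNRNPK, -0.0048 for HNRNPD and -0.04 for HNRNPA1, and none of the 3 falls passed with TMM scaling (adjusted p = 0.0772, 0.624 and 0.169). With quantile normalization these 3 changes and that of HNRNPA2B1 lay above 0, and HNRNPK was then called higher (log2 change 0.11, adjusted p = 0.00393). HNRNPK footprints were 487, 602 and 639 in knockdown libraries and 754, 689 and 634 in control guide libraries. HNRNPD footprints were 322, 327 and 394 in knockdown libraries and 436, 455 and 367 in control guide libraries. Both pairs of groups overlapped, through knockdown replicate 3 and control guide replicate 3. The HNRNPD change of -0.27 passed (limma adjusted p = 0.0463), and the HNRNPK change of -0.27 (95% interval -0.50 to -0.04) did not (adjusted p = 0.0569).

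The 5 footprint falls in the knockdown were near the threshold. The count was 1 without knockdown replicate 1 or 2, 0 without control guide replicate 1, 1 without control guide replicate 2 and 3 without control guide replicate 3. Without knockdown replicate 3 it was 6: HNRNPA2B1 (adjusted p = 0.0143) and HNRNPK (adjusted p = 0.0129) passed, and HNRNPL did not (adjusted p = 0.0517). With the spread from all 12 libraries it was 8, where HNRNPA2B1, HNRNPK and U2AF2 passed as well. It was 1 with library medians aligned and 2 with quantile normalization. Of all transcripts, 36.2% were called in the main fit, 49.4% with the spread from all 12 libraries and 29.2 to 33.2% with 1 replicate left out. With library medians aligned the share was 36.3%, and with quantile normalization 37.0%.

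**Figure D3:**
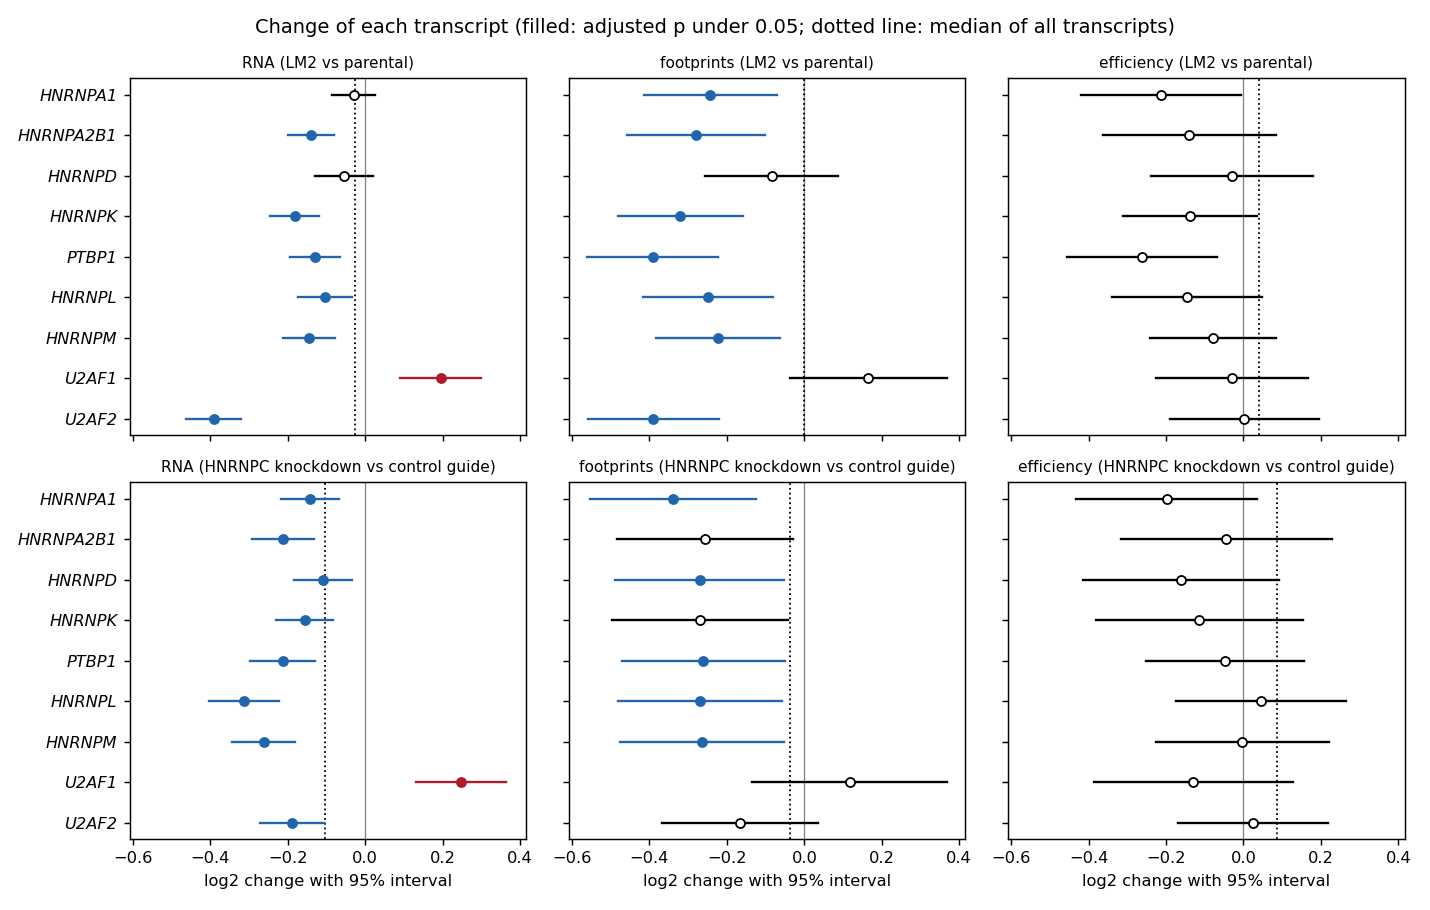
Log2 change with its 95% interval of each transcript for RNA, footprints and translation efficiency, LM2 over parental (top) and HNRNPC knockdown over control guide (bottom). Filled circles passed limma's test at an adjusted p under 0.05 (blue lower, red higher), open circles did not, and the dotted line is the median of all transcripts. U2AF1 RNA is the only filled red circle in each row of panels, and the efficiency panels hold open circles only.

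Set side by side, 6 of the 9 transcripts had lower RNA in both comparisons (HNRNPA2B1, HNRNPK, HNRNPL, HNRNPM, PTBP1 and U2AF2), and U2AF1 alone had higher RNA in both. Of 8171 transcripts tested in both tables, 15.5% were lower in both and 5.31% higher in both. Footprints were lower in both for 4 of the 9 (HNRNPA1, HNRNPL, HNRNPM and PTBP1), against 4.85% of all transcripts. The comparisons used separate libraries in tables that were normalized separately. U2AF1's RNA rise passed under all 17 alternatives in each comparison, with a log2 change of 0.15 to 0.25 in LM2 cells and 0.21 to 0.37 in the knockdown. The falls of U2AF2 and HNRNPK RNA in LM2 cells and of HNRNPL and HNRNPM RNA in the knockdown also passed in all 17.

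Ratios within a library do not change with 1 scaling factor per library, though quantile normalization can change them. The U2AF subunits were therefore also compared by the U2AF2 value divided by the U2AF1 value, on the deposited values. This ratio was chosen after the values were seen and is given without a test. For RNA it was 2.56, 2.66 and 2.73 in LM2 libraries and 3.86, 4.32 and 3.78 in parental libraries. Its mean was 2.65 ± 0.0889 in LM2 cells against 3.99 ± 0.288 in parental cells (SD, n = 3), a fold of 0.666. In the knockdown comparison the RNA ratio was 3.22, 3.46 and 3.23 in knockdown libraries and 4.43, 4.62 and 4.36 in control guide libraries, with means of 3.30 ± 0.139 for knockdown and 4.47 ± 0.135 for control guide cells and a fold of 0.739. The RNA ratio was thus lower in every LM2 or knockdown library than in any library it was set against. For footprints the ratio was 3.18, 2.81 and 2.97 in LM2 libraries and 4.73, 4.06 and 4.398 in parental libraries, a fold of 0.680. Footprint ratios in the other table were 3.62, 4.28 and 3.54 in knockdown libraries and 4.92, 4.74 and 4.25 in control guide libraries, a fold of 0.821, and there knockdown replicate 2 lay within the control guide range. The genome assembly named by the submitters is known to hold a near-identical second copy of U2AF1, and how reads shared with it were assigned is not given in the sources used here.

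**Figure D4:**
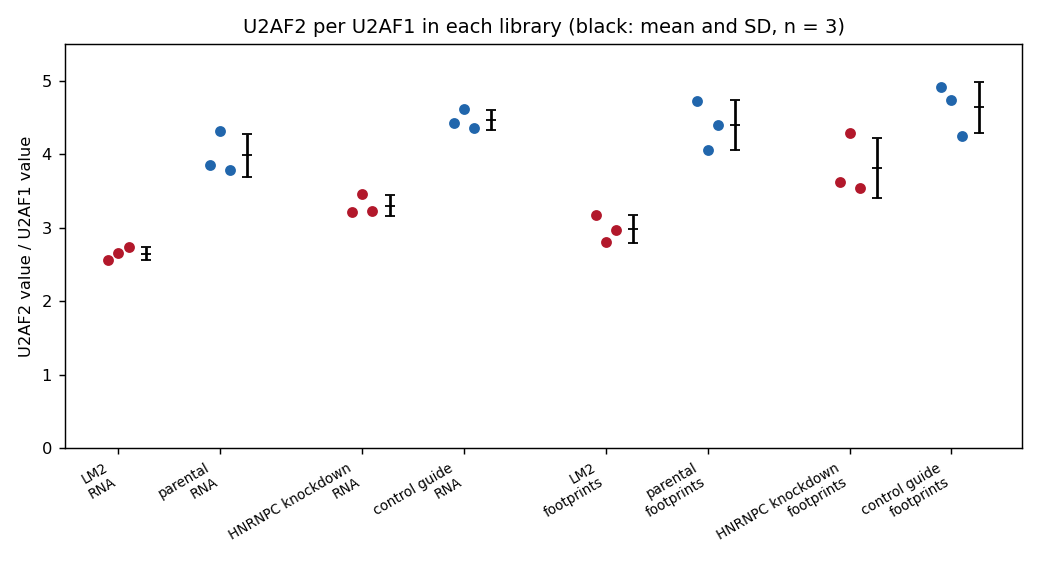
Value of U2AF2 divided by the value of U2AF1 within each library, for RNA (left 4 groups) and footprints (right 4 groups). Points are libraries (red LM2 and HNRNPC knockdown, blue parental and control guide), with the mean and SD in black (n = 3). LM2 RNA lies at 2.56 to 2.73, against 3.78 to 4.32 in parental cells, and knockdown RNA at 3.22 to 3.46, against 4.36 to 4.62 in control guide cells.

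The share of each transcript in the summed value of the set does not change with 1 scaling factor per library either. Quantile normalization can change it. U2AF1 took 1.76% ± 0.0790 of the summed RNA value of the 9 transcripts in LM2 cells, against 1.42% ± 0.0808 in parental cells, and 1.66% ± 0.0659 in knockdown cells, against 1.24% ± 0.0200 in control guide cells (SD, n = 3). U2AF2's share was 4.65% ± 0.153 in LM2 cells and 5.62% ± 0.0883 in parental cells. In the knockdown comparison U2AF2's share was 5.49% ± 0.161 in knockdown cells, against 5.53% ± 0.187 in control guide cells, with overlapping libraries. U2AF1's share was higher in both comparisons, with no overlap between libraries. U2AF1's share of the summed footprint value was 2.55% ± 0.220 in LM2 cells, against 1.88% ± 0.0638 in parental cells, and 2.26% ± 0.212 in knockdown cells, against 1.74% ± 0.141 in control guide cells, again with no overlap. U2AF2's footprint share was 7.59% ± 0.527 in LM2 cells, against 8.26% ± 0.375 in parental cells, with overlapping libraries. In the knockdown table U2AF2's footprint share was higher, at 8.56% ± 0.319 in knockdown cells, against 8.03% ± 0.0563 in control guide cells, without overlap. Of the summed RNA value, HNRNPA1 took 24.5% ± 0.278 in LM2 cells and 23.1% ± 0.0968 in parental cells, and HNRNPK took 14.1% ± 0.121 and 14.8% ± 0.240 in the same groups. HNRNPL took 4.70% ± 0.149 in knockdown cells, against 5.17% ± 0.193 in control guide cells. HNRNPM took 8.13% ± 0.123 in knockdown cells, against 8.62% ± 0.222 in control guide cells. HNRNPD took 8.97% ± 0.0882 in knockdown cells, against 8.55% ± 0.150 in control guide cells. None of these last 5 pairs of groups overlapped, and they are named for that reason. Footprint shares were also apart for HNRNPD (9.38% in LM2 and 8.25% in parental cells) and PTBP1 (14.8% and 16.1%). The same held for HNRNPA1 footprints, at 12.2% in knockdown and 13.0% in control guide cells. All shares not named here overlapped. How often groups are apart over all transcripts was not counted. A share also depends on the other transcripts of the set, so a higher share need not be a rise. The values are not per length, so a share describes the deposited values and not the number of molecules.

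Translation efficiency was called for 0 of the 9 transcripts in LM2 cells, where 0.471% of all transcripts were called higher and 1.16% lower. It was also called for 0 of the 9 in the knockdown, where 3.72% were called higher and 1.74% lower. At an unadjusted p under 0.05, limma's interaction test gave 2 of the 9 in LM2 cells (HNRNPA1 and PTBP1) and 0 in the knockdown, against 1288 of 9342 and 1731 of 8283 over all transcripts. The lowest adjusted p was 0.194 for PTBP1 in LM2 cells and 0.326 for HNRNPA1 in the knockdown. In LM2 cells the log2 efficiency change was -0.26 (95% interval -0.46 to -0.07) for PTBP1 and -0.21 (-0.42 to -0.01) for HNRNPA1. Without LM2 replicate 1, which had the highest footprint value for 8 of the 9 transcripts, PTBP1 (-0.35, adjusted p = 0.0108) and HNRNPA1 (-0.32, adjusted p = 0.00656) passed. That fit called 310 of all 9342 transcripts, 265 of them lower, against 152 with every library, 108 of them lower. The median efficiency change of the 9 transcripts was -0.14 in LM2 cells and -0.05 in the knockdown, against 0.04 and 0.09 for all transcripts. The 95% interval of HNRNPA1 efficiency in the knockdown was -0.43 to 0.04, so a missed test does not show that efficiency stayed the same. In the knockdown, TMM scaling moved the share of higher calls among all efficiency calls to 43.5%, against 68.1% on the deposited values. With RNA and footprint libraries paired by replicate number, 0 of all 9342 transcripts were called in LM2 cells with limma (1078 at an unadjusted p under 0.05), against 152 without the pairing. In the knockdown 75 were called with that pairing, 48.0% of them higher, against 452 without it. The count for the 9 transcripts was 0 in both comparisons with the pairing too.

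The level of efficiency differed widely among the 9 transcripts and followed nearly the same order in all 4 cell groups. It is given as the footprint value per 1000 units of RNA value of the same transcript. Length thus cancels where both assays were counted over the same region, which the sources used here do not state. RNA and footprint libraries were matched by replicate number, so the SDs and the overlaps of replicates depend on that matching. Whether matched libraries came from the same lysate was not tested. HNRNPA1 was lowest, at 15.7 ± 2.06 in LM2 cells, against 18.1 ± 1.04 in parental cells, and 13.9 ± 1.67 in knockdown cells, against 15.9 ± 0.830 in control guide cells (SD, n = 3). These lay at percentiles 9.002, 13.1, 8.87 and 14.2 of all transcripts tested in those groups. HNRNPL was highest, at 72.4 ± 9.06 in LM2 cells, against 79.8 ± 3.37 in parental cells, and 83.5 ± 9.23 in knockdown cells, against 80.8 ± 7.52 in control guide cells. The ratio of the highest to the lowest of the set was 4.62 in LM2 cells and 4.41 in parental cells, and 6.01 in knockdown cells, against 5.09 in control guide cells. The median of all transcripts was 43.6 in LM2 cells and 42.5 in parental cells, and 37.8 in knockdown cells, against 35.7 in control guide cells.

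**Figure D5:**
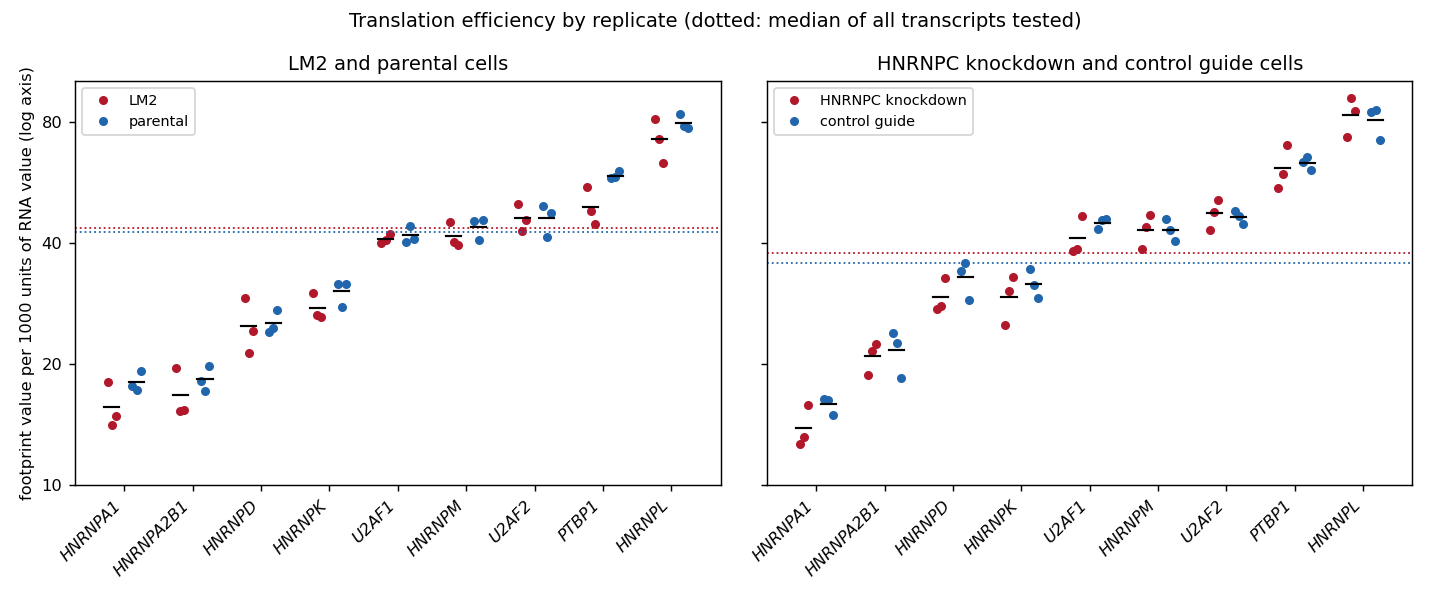
Footprint value per 1000 units of RNA value of 9 transcripts in each replicate (log axis), with RNA and footprint libraries matched by replicate number for display, in LM2 and parental cells (left) and HNRNPC knockdown and control guide cells (right). Points are replicates, black bars are means, and dotted lines are the median of all transcripts in each group, in the group's colour. HNRNPA1 lies lowest, at 14.1 to 19.3 on the left, and HNRNPL highest, at 63.3 to 83.6.

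HNRNPA2B1 followed HNRNPA1, at 16.8 ± 2.45 in LM2 cells, against 18.4 ± 1.297 in parental cells, and 20.9 ± 1.93 in knockdown cells, against 21.7 ± 2.80 in control guide cells. The replicates of HNRNPA1 and HNRNPA2B1 overlapped in LM2 and in parental cells and were apart in the other groups. HNRNPD and HNRNPK came next, at 24.9 ± 4.03 and 27.6 ± 2.18 in LM2 cells and 25.3 ± 1.71 and 30.3 ± 2.25 in parental cells. In knockdown cells they stood at 29.3 ± 3.0 and 29.4 ± 4.04, and in control guide cells, where their order turned, at 32.9 ± 3.59 and 31.7 ± 2.62. Their replicates overlapped in every group but the parental one. U2AF1, HNRNPM and U2AF2 followed, with HNRNPM below U2AF1 in control guide cells, and the replicates of neighbours among these 3 overlapped in each of the 4 cell groups. U2AF1 had 40.9 ± 0.979 in LM2 cells, against 41.8 ± 2.01 in parental cells, and 41.2 ± 4.82 in knockdown cells, against 44.9 ± 1.41 in control guide cells. HNRNPM had 41.6 ± 3.10 in LM2 cells, against 43.9 ± 2.79 in parental cells, and 43.2 ± 4.30 in knockdown cells, against 43.2 ± 2.70 in control guide cells. U2AF2 had 46.2 ± 3.57, 46.2 ± 4.19, 47.4 ± 4.09 and 46.5 ± 1.78 in the same groups. PTBP1 stood above these at 49.3 ± 5.41 in LM2 cells and 58.9 ± 1.22 in parental cells, and at 61.5 ± 7.96 in knockdown cells, against 63.2 ± 2.43 in control guide cells. Its replicates overlapped those of U2AF2 in LM2 cells and in no other group.

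Within a group, the 9 footprint values tended to be high or low in the same libraries. LM2 replicate 1 held the highest footprint value for 8 of the 9 transcripts, and parental replicate 2 the lowest for 7 of the 9. Knockdown replicate 1 held the lowest for 8 of the 9 and knockdown replicate 3 the highest for 8 of the 9, while control guide replicate 3 held the lowest for 8 of the 9. These libraries also had the highest or lowest summed footprint value of all transcripts in their group. The sum was highest in LM2 replicate 1 (1068217) and knockdown replicate 3 (724090). It was lowest in parental replicate 2 (1105987), knockdown replicate 1 (669584) and control guide replicate 3 (720575). How many of all transcripts share this pattern was not counted. The set took 0.518 to 0.587% of the summed footprint value in LM2 libraries and 0.590 to 0.618% in parental libraries. In the other table it took 0.539 to 0.606% in knockdown libraries and 0.623 to 0.667% in control guide libraries. The set's share was highest or lowest in the same libraries as the sum. The median SD of log2 footprints over the 9 transcripts was 0.16 in LM2 cells and 0.06 in parental cells, and 0.16 in knockdown cells, against 0.07 in control guide cells. RNA values were tighter, with a median coefficient of variation of 2.51% in LM2 cells, against 1.96% in parental cells, and 2.76% in knockdown cells, against 2.47% in control guide cells. The part of these shared library shifts in the footprint falls was not tested.

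RNA values matched 23344230 to 52584688 reads per library, since every value was a whole multiple of 1 step within 0.05 steps. Deposited RNA values summed to 32454759 to 32801620 in LM2 libraries, below the 33854389 to 34184294 in parental libraries. The footprint values of a library added up to 1023095 to 1068217 for LM2 cells, below the 1105987 to 1134509 for parental cells. Footprint sums overlapped in the other table, at 669584 to 724090 for knockdown and 720575 to 753066 for control guide cells. The depth of the footprint libraries in reads is unknown. All values are the authors' normalized signal.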

How the data were processed

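RNA-seq and ribosome profiling libraries of MDA-MB-231 cells were analysed from 2 deposited tables, 1 for LM2 and parental cells and 1 for HNRNPC knockdown and control guide cells. Lysates were made with cycloheximide, footprints followed the protocol of McGlincy and Ingolia, and the RNA was prepared with the SMARTer Pico Input kit, per the labels' protocols. The submitters' processing notes name cutadapt 2.3, UMI-tools, Bowtie2 2.3.5, SAMtools and hg38. The values are the authors' normalized signal per transcript, as deposited; how they were normalized, counted and treated for strand is not given in the sources used here. The tables were normalized separately, so every test stayed within 1 table.

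Transcripts with a mean of at least 10 in both assays were tested on log2(value + 1) with limma 3.58.1 in R 4.3.3 (variance trend, two-sided, Benjamini-Hochberg adjustment over all transcripts tested, threshold 0.05, 3 replicates per group). A fold change on this scale understates the change of low transcripts. Translation efficiency was the interaction of assay and cell group over the 12 libraries of a table. The fits were tested on simulated data with independent noise, in which the planted changes were larger than those of the 9 transcripts. Changes as small as theirs and shifts shared within a library were not simulated. The members and lists were chosen with earlier results of these data known. Every member with a row is named, with its values in each library. Lists of other hnRNPs, SR proteins and 3' splice site factors were not analysed here, since no transcript ID was paired with a symbol. Gene positions, pseudogene names and promoters came from RefSeq (GRCh38.p14), in which 8 of the 9 genes had a promoter. Alternatives were other pseudocounts, filters, scalings, variance models and blocks, and leaving out each replicate.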

Additional observations from a re-analysis of the deposited data

How the results depend on the processing

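Each of the 6 counts and each log2 change was recomputed under 17 alternatives. Of 918 recomputed changes of single transcripts, 802 stayed on their side of the threshold. A further 95 kept their sign and no longer passed, and 14 kept their sign and newly passed. In the remaining 7, all with quantile normalization, a change that had passed turned sign, and only HNRNPK RNA in the knockdown was then called, as higher. Changes that had not passed crossed 0 in 31 cases, under quantile normalization, other scalings, array weights and left-out replicates. The 7 were LM2 footprints of HNRNPA1 (0.0326), HNRNPL (0.0136) and HNRNPM (0.0489) and knockdown RNA of HNRNPA1 (0.0261), HNRNPA2B1 (0.0665), HNRNPD (0.0192) and HNRNPK (0.107). With quantile normalization, the transcripts called in LM2 cells were 4 for RNA and 0 for footprints, against 7 and 7. In the knockdown they were 4 for RNA, 2 for footprints and 2 for efficiency (HNRNPA1 and HNRNPK), against 9, 5 and 0. Of all transcripts, this normalization called 53.4% for LM2 RNA and 20.9% for LM2 footprints, against 53.7% and 23.8% in the main fits. In the knockdown it called 73.4% for RNA, 37.0% for footprints and 5.81% for efficiency, against 73.5%, 36.2% and 5.46%. Aligned library medians left 5 for knockdown RNA and 1 for knockdown footprints, where 73.5% and 36.3% of all transcripts were called. A spread taken from all 12 libraries of a table gave 3 for LM2 RNA (U2AF1, U2AF2 and HNRNPK), 5 for knockdown RNA and 8 for knockdown footprints. The share of all transcripts called with that spread was 28.9%, 49.8% and 49.4%, against 53.7%, 73.5% and 36.2% in the main fits. Without a variance trend, 0 of the 9 footprint changes passed in either comparison, against 1173 of 9342 transcripts in LM2 cells and 2252 of 8283 in the knockdown. Array weights gave 1 efficiency call in LM2 cells (PTBP1), where 3.33% of all transcripts were called, against 1.63% in the main fit. Leaving out 1 replicate at a time gave 3 to 7 for LM2 footprints, 0 to 2 for LM2 efficiency and 0 to 6 for knockdown footprints. Those fits called 16.2 to 22.0%, 0.268 to 3.32% and 29.2 to 33.2% of all transcripts. The cause of these changes was not tested.

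Within an assay, samples of the compared cell groups with the same replicate number did not deviate together (correlations of -0.20 to 0.03). With 3 replicates this does not show whether a number marks a shared culture or day. Whether RNA and footprint libraries of the same number came from the same lysate was not tested. With the number as a replicate block, footprint calls were 5 in LM2 cells, without HNRNPA1 and HNRNPM, and 0 in the knockdown. Of all transcripts, 23.0% and 34.4% were called in footprints with the block, against 23.8% and 36.2% in the main fits. RNA and efficiency counts of the 9 transcripts were the same. For RNA the block called 51.4% of all transcripts in LM2 cells and 73.1% in the knockdown, and for efficiency 0.460% and 2.21%. The planned count tests on recovered reads were not run. Footprint depth in reads is unknown, and 3 replicates limit the precision.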
